A study of Mus musculus with 2 samples.

Results

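The imprinted Snrpn domain of central chromosome 7 was examined in mouse primordial germ cells (PGCs) of embryonic day 9.5. Of 6 genes listed for the domain by symbol (Snurf, Snrpn, Ube3a, Ndn, Magel2 and Mkrn3), 5 had a row among the 18877 genes of the table. Magel2 had none and was not analysed here. RNA-seq was performed on 2 biological replicates that form 1 group. The cells came from untreated C57BL6 embryos and the labels name an SSEA1 antibody for their isolation. The methods give either magnetic sorting on SSEA1 or flow sorting on SSEA1 together with CD61 (integrin beta 3), and which was used for these libraries is not stated. SSEA1 is a carbohydrate antigen of the cell surface, which other embryonic cells can also carry. The methods describe the embryos as female, and the Y-linked genes Ddx3y (362 and 93 reads in replicates 1 and 2) and Uty (137 and 37 reads) were detected. Other stages and cultured cells were not analysed here, so no test between groups was possible.

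Genomic imprinting restricts a gene to transcription from the maternal or the paternal chromosome. In this domain, the region around the Snurf and Snrpn promoter is methylated on the maternal chromosome and acts as the imprinting centre, and Snurf, Snrpn, Ndn, Magel2 and Mkrn3 are transcribed from the paternal chromosome. Ube3a is transcribed from both chromosomes in most cells, and from the maternal one in neurons, where the long non-coding transcript Snhg14 runs antisense to it. Loss of the human counterparts leads to Prader-Willi syndrome (paternal genes) or Angelman syndrome (UBE3A). PGCs erase these marks while they migrate and enter the genital ridges. Allelic origin was not measured in this table, which gives the total level of each gene.

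The Snurf and Snrpn promoter is shown because it lies at the imprinting centre and serves the highest members. The RefSeq promoter window (GRCm38.p6, chr7:60005150-60005449, minus strand, 250 bases before to 50 bases after the start) is the same for both genes and is printed 5′ to 3′, with capitals marking CGCATGCG.
Snurf and Snrpn: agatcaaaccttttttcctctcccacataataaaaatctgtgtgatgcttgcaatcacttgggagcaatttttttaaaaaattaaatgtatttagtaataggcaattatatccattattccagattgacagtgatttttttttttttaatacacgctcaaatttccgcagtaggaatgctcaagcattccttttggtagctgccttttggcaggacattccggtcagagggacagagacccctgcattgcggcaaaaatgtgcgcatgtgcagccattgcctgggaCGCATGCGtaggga
This sequence of 8 bases is its own reverse complement and forms the centre of the palindromic motif known for the factor NRF1. It was picked from these same windows after they had been read, so its presence in them is a description. The 4 RefSeq promoter windows of Snrpn held it, as did that of Ndn, and 611 of 32817 windows of this length held it in all (1.86%). The 3 upstream Snrpn windows resemble each other, with shared runs of 49 to 62 bases, and are not separate occurrences. The windows of Ube3a, Mkrn3 and Magel2 did not. The 24 bases around the match are shown for the upstream Snrpn starts and for Ndn, to allow comparison.
Snrpn, start 2: aacatgcaCGCATGCGtcgttgaa
Snrpn, start 3: aacatccaCGCATGCGtgatggga
Snrpn, start 4: aacatccaCGCATGCGtgattgga
Ndn: tcccaacaCGCATGCGcaatatcg
In the shared promoter the match lay 36 bases after the start. It began 71, 78 and 63 bases before the upstream Snrpn starts and 23 bases before the Ndn start. The window of Ube3a had 29 CpG dinucleotides, that of the Snurf and Snrpn promoter had 7, and the median window had 7. Mkrn3 had 15, Ndn 11 and Magel2 10, and the upstream Snrpn starts 2, 3 and 4 had 4, 3 and 2. These counts cover the windows alone, and not the whole imprinting centre. A match describes letters only, and binding was not measured.

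Snurf encodes a small basic protein from the upstream reading frame of a transcript that also encodes the Snrpn protein. Its model in the annotation (GENCODE M21 on GRCm38, chr7:59995449-60005049, minus strand) is the reading frame alone, 216 bases in 3 exons, printed 5′ to 3′ with the middle exon in capitals.
Snurf: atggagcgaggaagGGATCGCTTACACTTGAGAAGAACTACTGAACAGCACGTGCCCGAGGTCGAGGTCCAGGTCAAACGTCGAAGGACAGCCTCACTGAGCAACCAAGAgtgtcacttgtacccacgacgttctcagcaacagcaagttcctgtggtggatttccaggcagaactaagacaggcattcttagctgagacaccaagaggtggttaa
This run occurred whole in 1 of 2 annotated Snrpn transcripts and in 1 of 4 transcripts of the same-strand gene Gm38393. All 216 exonic bases of Snurf lie within exons of Snrpn and also within exons of Gm38393, so Snurf had 0 exonic bases of its own. Snrpn had 1570 of its 2159 exonic bases free of other genes on its strand. The 3 levels below are therefore not independent measurements.

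**Figure D1:**
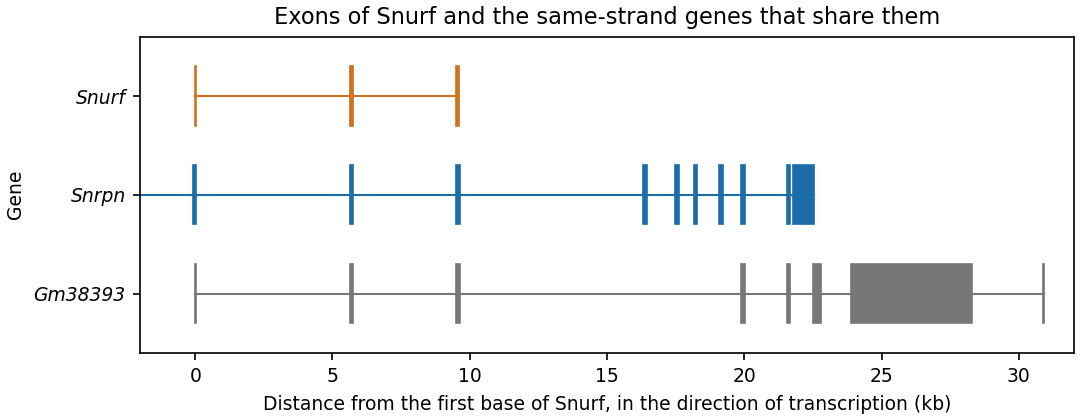
Exons of Snurf, Snrpn and Gm38393 as boxes, with introns as lines, against the distance in kb from the first base of Snurf in the direction of transcription. All 3 exons of Snurf coincide with exons of both other genes, while Snrpn continues upstream beyond the left edge and downstream of Snurf.

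Expression of the domain is given in TPM, a value per base of exon and relative to the library's whole, which puts different genes on a common scale. The value of a very short model such as Snurf is less comparable with the others. Reads behind each value were recovered from the table (15912417 in replicate 1 and 5458620 in replicate 2), and ranges in brackets are exact Poisson 95% intervals, which cover counting error only. All 5 members with a row were detected at 1 TPM or more in each replicate, as were 60.0% of all genes in the table. At 5 TPM or more, 4 members were detected in each replicate, compared with 35.5% of all genes, and Mkrn3 was not. The levels fell in the order Snurf, Snrpn, Ube3a, Ndn and Mkrn3 in both replicates. As these are bulk samples, fewer cells that transcribe a gene and less RNA per cell cannot be told apart.

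Snurf was at 127 TPM in replicate 1 (261 reads, interval 112 to 144 TPM) and 118 TPM in replicate 2 (85 reads, 94.0 to 146 TPM), a mean of 122 ± 6.65 TPM (SD, n = 2). Of all genes in the table, 94.5% were lower than Snurf in replicate 1 and 94.4% in replicate 2. The intervals of both replicates overlapped. The value rests on few bases, and every read on them also lies on exons of Snrpn and Gm38393.

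Snrpn encodes SmN, a core protein of the spliceosomal small nuclear ribonucleoproteins. Its row (chr7:59982495-60140219, minus strand, 12 exonic blocks) was at 55.8 TPM in replicate 1 (1145 reads, 52.6 to 59.1 TPM) and 50.2 TPM in replicate 2 (362 reads, 45.1 to 55.6 TPM), a mean of 53.0 ± 3.99 TPM (SD, n = 2). Snurf exceeded Snrpn by 1.17 and 1.21 on the log2(TPM + 1) scale (mean 1.19 ± 0.0289, SD, n = 2). The reads of Snurf equalled 22.8% and 23.5% of those of Snrpn, on 216 of its 2159 exonic bases. If every Snurf read was also counted for Snrpn, 884 and 277 reads were left for the other 1943 bases. The density on Snurf was then 2.66 and 2.76 times that on the rest of Snrpn. Values are per base of plain exonic length, so a read only partly on these 216 bases can count in full for Snurf. How much this adds to the density and to the difference from Snrpn was not tested. Gm38393, which shares 589 exonic bases with Snrpn, was at 18.8 TPM (933 reads) and 17.8 TPM (311 reads).

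Counting that discards reads on exons of several genes would have left Snurf without reads, since it has no base of its own. The same was measured across the table. Of 432 genes without an exonic base of their own on their strand, 254 had reads in both replicates. How reads on overlapping genes were assigned is not stated, and the share of Snurf and Snrpn reads counted more than once cannot be read from the table.

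Ube3a encodes E6-AP, a HECT-type ubiquitin ligase. Ube3a (chr7:59228750-59311536, plus strand) was at 10.7 TPM in both replicates, with 2097 reads (10.2 to 11.2 TPM) in replicate 1 and 736 reads (9.92 to 11.5 TPM) in replicate 2. The replicates differed by -0.0027 on the log2(TPM + 1) scale, the smallest difference among the members. The 16 exonic blocks of its 18 transcripts amount to 20626 bases, whereas the longest transcript has 9856. Per base of that longest transcript, the level would be 22.4 and 22.3 TPM. Exons of genes on the opposite strand cover part of it, with 2025 bases shared with Gm44560, 1803 with Snhg14 and 1796 with 9330162G02Rik. Gm44560 was at 32.4 TPM (960 reads) and 33.0 TPM (344 reads), and 65.0% of its exonic bases lie opposite Ube3a exons. The strand setting of the counting is not given, so reads of Ube3a and of these genes cannot be told apart on the shared bases.

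Ndn encodes necdin, a MAGE family protein known for restraining the cell cycle in neurons. Ndn (chr7:62346569-62350262, plus strand, 1 exon) was at 9.45 TPM in replicate 1 (332 reads, 8.46 to 10.5 TPM) and 8.75 TPM in replicate 2 (108 reads, 7.17 to 10.6 TPM), a mean of 9.10 ± 0.502 TPM (SD, n = 2). The RefSeq gene is shorter, with 1652 bases compared with 3694 in GENCODE. Per base of the RefSeq gene, the level would be 21.1 and 19.6 TPM. Ndn was below Ube3a by 0.16 and 0.26 on the log2(TPM + 1) scale. Their counting intervals overlapped in both replicates, and the gene model moved each level more than the difference between them, so their order is not settled by these values. Mkrn3, next in the order, lay below Ndn with counting intervals apart in both replicates.

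Mkrn3 encodes a makorin RING-finger protein known for its role in the timing of puberty. Mkrn3 (chr7:62417593-62420139, minus strand, 1 exon) was at 3.59 TPM in replicate 1 (87 reads, 2.88 to 4.43 TPM) and 1.64 TPM in replicate 2 (14 reads, 0.899 to 2.76 TPM). It was the lowest member, and the counting intervals of the replicates did not overlap. Replicate 1 was 2.19-fold higher in TPM, and the difference was -0.80 on the log2(TPM + 1) scale. Of all genes that differed, 55.7% were lower in replicate 2. Among markers with a row, this held for 4 of 4 of macrophage (summed level 19.4 and 9.53 TPM), 4 of 5 of endothelium, 5 of 7 of erythroid cells and 7 of 11 of PGCs. It held for 1 of 3 of neural progenitor, 1 of 3 of gut endoderm, 1 of 4 of visceral endoderm, 1 of 6 of neuron and 0 of 6 of mesenchyme markers. Of these, 2 mesenchyme markers and 1 gut endoderm marker were at 0 in both replicates and could not be lower. The part of other cells in the value of Mkrn3 was not tested.

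**Figure D2:**
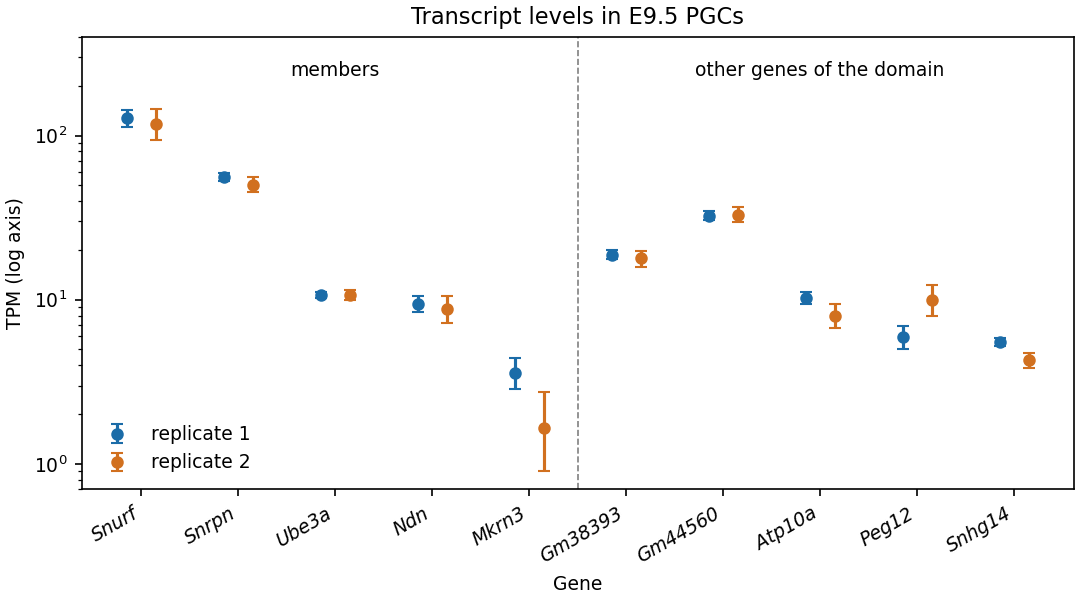
TPM on a log axis for the 5 members with a row and 5 other genes of the domain, with a point for each replicate and bars for exact Poisson 95% intervals of the recovered reads. Snurf and Snrpn stand above 45 TPM in both replicates including their intervals, Ube3a and Ndn lie close together, and Mkrn3 is lowest.

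Differences between the replicates were small for the members other than Mkrn3. On the log2(TPM + 1) scale, replicate 2 minus replicate 1 was -0.11 for Snurf, -0.15 for Snrpn and -0.10 for Ndn. All 5 members were lower in replicate 2, as were 55.7% of all genes that differed. With median-of-ratios scaling of the libraries the sign of Ube3a turned, to 0.035, and the other 4 stayed lower. None of the 5 members (0) differed more than 2-fold on this scale, compared with 10.2% of all genes. With a pseudocount of 0.1, Mkrn3 passed this fold at -1.08, as did 23.7% of all genes. Among genes with a mean TPM from 1 to 5, where Mkrn3 lies, the share was 28.8%. With a pseudocount of 1, the share among those genes was 17.9%. These differences describe 1 pair of libraries, of which replicate 1 was 2.92 times deeper.

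**Figure D3:**
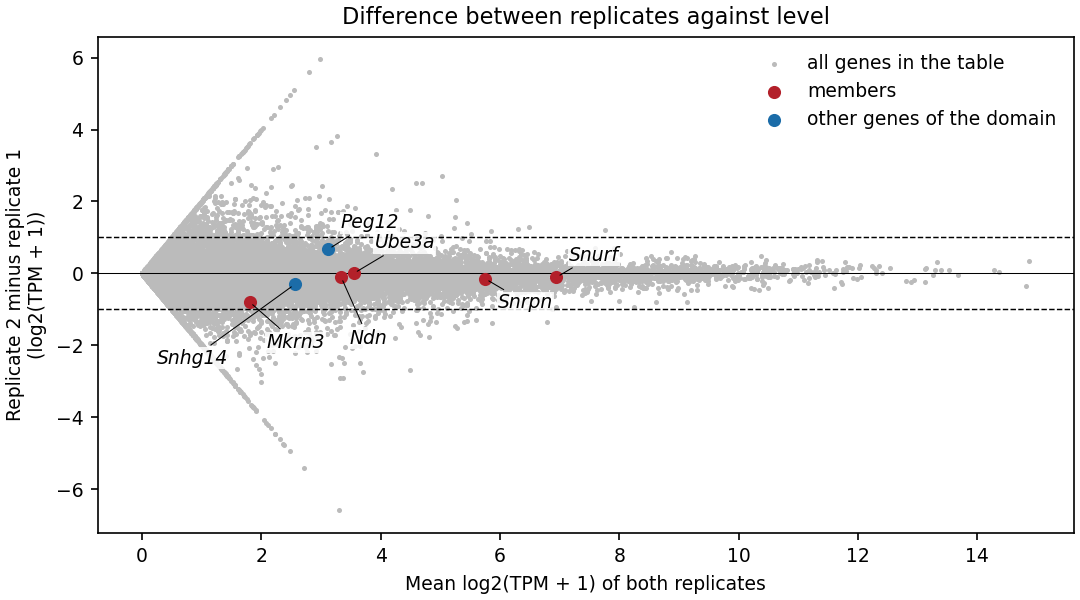
Replicate 2 minus replicate 1 against the mean of both, on the log2(TPM + 1) scale, for all genes (grey), the members (red) and Peg12 and Snhg14 (blue), with dashed lines at a 2-fold difference. The members lie between -0.80 and -0.0027, and the grey points spread more widely at low levels.

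Other transcripts of the domain were measured next. Between the outermost members (3.19 Mb), GENCODE places 266 genes, of which 17 had a row. Among them are 210 snoRNA genes, which guide the modification of other RNAs, and only Snord64 and Snord107 had a row. Neither has an exonic base of its own. Snord107 was at 21.04 TPM with 14 reads in replicate 1 and listed at 0 in replicate 2, where 0 reads allow up to 12.8 TPM. Snord64 had 1 and 2 reads. In the annotation used, both lie within the span of Gm38393 and outside that of Snhg14. Snhg14, a long non-coding transcript antisense to Ube3a, was at 5.55 TPM (1377 reads, 5.26 to 5.85 TPM) in replicate 1 and 4.29 TPM (374 reads, 3.86 to 4.74 TPM) in replicate 2. Its level was below that of Ube3a by 0.84 and 1.14 on the log2(TPM + 1) scale, each per base of all exons.

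Peg12, a paternally expressed gene just beyond Mkrn3, was higher in replicate 2, where 55.7% of all genes that differed were lower. It was at 5.90 TPM (148 reads, 4.99 to 6.93 TPM) in replicate 1 and 9.97 TPM (88 reads, 7.997 to 12.3 TPM) in replicate 2, and these intervals did not overlap. Atp10a, an aminophospholipid transporter gene on the other flank, was at 10.2 and 7.98 TPM. The processed pseudogene Gm10297 was at 43.6 and 54.2 TPM. Gm44829 (17 and 2 reads) and Gm44830 (0 and 4 reads) were near the limit of detection, and 9330162G02Rik was at 0.816 and 1.21 TPM. Gm44562, Gm23490 and Mir344g were listed at 0 in both replicates, where 3 reads would be 0.234 and 0.666 TPM for Gm44562.

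The members were then set beside imprinted genes of other domains. The median of the 4 paternally expressed members was 4.61 in replicate 1 and 4.48 in replicate 2 on the log2(TPM + 1) scale, and the median of all genes was 1.89 and 1.85. Of 21 other paternally expressed genes listed, 16 had a row. The median of these 16 was 1.63 and 1.73, lower than that of the members by 2.98 and 2.75 (mean 2.87 ± 0.161, SD, n = 2). Without the Snurf row, which repeats bases of Snrpn, the difference was 1.66. Snrpn (53.0 TPM) was above the highest of the other list, Mcts2 (48.0 ± 5.22 TPM), followed by Impact (41.1 ± 13.5) and Slc38a4 (27.3 ± 3.72 TPM). The lowest were Sgce (0.452 ± 0.201), Airn (24 and 0 reads) and Dio3 (1 and 0 reads). The replicates of Snrpn (50.2 to 55.8 TPM) and Mcts2 (44.4 to 51.7 TPM) overlapped. Reads of Snrpn fell from 0.530 to 0.455 per base in replicate 1 once Snurf reads and bases were taken out. In replicate 2 they fell from 0.168 to 0.143 per base. The place of Snrpn above Mcts2 is therefore not settled by these values.

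Ube3a was compared with its paternally expressed neighbours. It was below their median by 1.06 and 0.94 on the log2(TPM + 1) scale (mean difference -0.997 ± 0.0873, SD, n = 2). The direction depended on the rows used. Without Snurf, Ube3a was above the median of the other 3 members by 0.21, and per base of the longest transcripts the difference was -0.026. Of 20 maternally expressed genes listed from other domains, 15 had a row, with a median of 2.43 in both replicates. Set among these, Ube3a (10.7 ± 0.0154 TPM) lay between Slc22a18 (10.1 ± 0.340) and Nap1l4 (15.9 ± 1.54 TPM). These neighbours in level were named after their values were seen. The highest of that list were Phlda2 (1203 ± 36.9), Commd1 (60.5 ± 4.11) and Cdkn1c (18.1 ± 0.862 TPM), and the lowest were Zim1 (0.528 ± 0.195), Ascl2 (4 and 0 reads) and Klf14, listed at 0 in both.

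**Figure D4:**
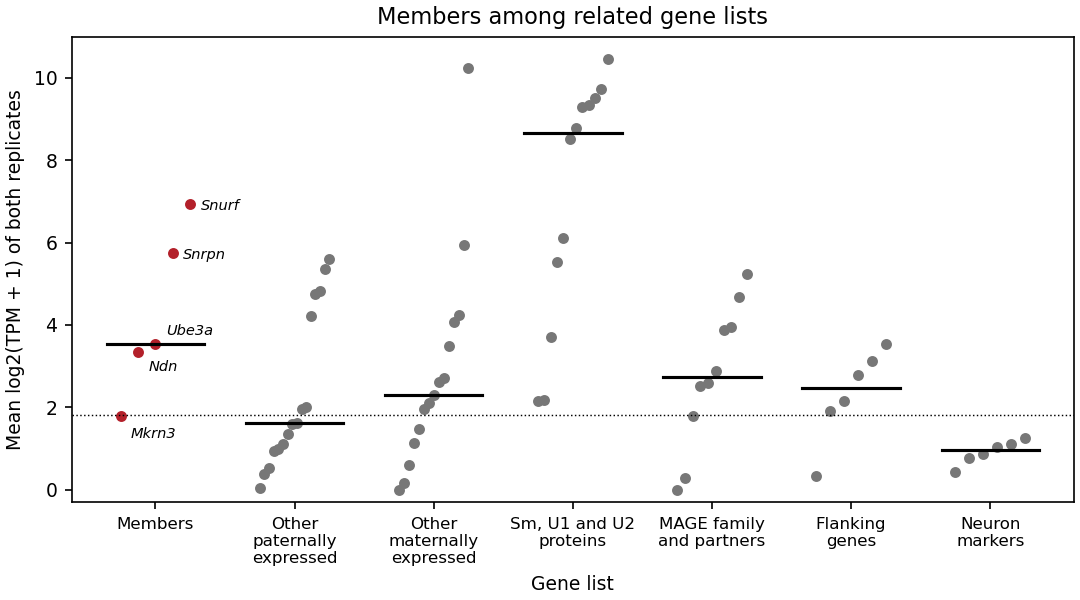
Mean log2(TPM + 1) of both replicates for each gene with a row in 7 lists, with a bar at the median of the plotted points and a dotted line at the median of all genes. Snurf and Snrpn, which share exonic bases, lie above every gene of the other paternally expressed list. Mkrn3 lies at the level of the median gene.

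Relatives and partners of the members were examined by function. Snrpb, which encodes SmB, is the closest relative of Snrpn, and SmN can replace SmB in the spliceosomal core. Snrpb was at 74.2 TPM (1393 reads, 70.3 to 78.2 TPM) in replicate 1 and 63.4 TPM (419 reads, 57.5 to 69.8 TPM) in replicate 2. Snrpn was lower than Snrpb in both, by 0.40 and 0.33 on the log2(TPM + 1) scale (mean difference -0.37 ± 0.0506, SD, n = 2), and the counting intervals did not overlap in either. Of runs of 50 bases in annotated Snrpn transcripts, 21.2% also occurred in Gm38393, while Snrpb was not among the genes recorded as sharing them. Genes that share only a very small part of these runs were not recorded. Both genes were far below the other core Sm genes. Snrpe (1407 ± 44.5), Snrpd2 (849 ± 43.5), Snrpd1 (727 ± 3.06), Snrpg (649.5 ± 43.1), Snrpf (624 ± 29.2) and Snrpd3 (366 ± 1.51 TPM) were all higher, with replicates apart from those of Snrpn. The U1 and U2 proteins ranged from Snrpc (3.43 ± 0.382) and Snrnp70 (3.56 ± 0.316) through Snrpa (12.1 ± 0.102) and Snrpb2 (45.8 ± 10.2) to Snrpa1 (441.5 ± 5.17 TPM). The median of all 12 genes was 8.65 ± 0.0114 on the log2(TPM + 1) scale.

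Necdin belongs to the MAGE family, whose members bind RING-type ubiquitin ligases. Of 10 genes of this family and its partners with a row, 8 reached a TPM of 1 in both replicates, compared with 60.0% of all genes. Ndn (9.10 TPM) lay below Maged1 (36.9 ± 3.94 TPM) and above Maged2 (6.38 ± 0.801), Nsmce3 (4.81 ± 1.53) and Mageh1 (2.61 ± 1.59 TPM). Magee1 had 9 and 2 reads, and Magee2 was listed at 0 in both. Trim27 (24.5 ± 2.22), Usp7 (14.6 ± 2.49), Vps35 (13.8 ± 0.750) and Washc1 (5.05 ± 1.07 TPM), known to act with Magel2 in protein recycling, were all measured. Of the makorins, Mkrn3 (2.62 ± 1.38 TPM) was below Mkrn2 (7.05 ± 0.115) and Mkrn1 (111 ± 9.53 TPM), and no replicate value of Mkrn3 reached theirs.

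For Ube3a, the ubiquitin-conjugating enzyme that works with it, Ube2l3, was at 549 ± 36.2 TPM. Among other E2 genes, Ube2d2a was at 55.5 ± 2.73, Ube2d3 at 24.7 ± 0.710 and Ube2d1 at 1.75 ± 1.01 TPM. Ube3a (10.7 TPM) was above its HECT relatives Ube3c (5.02 ± 0.00827 TPM) and Ube3b (1.80 ± 0.0960 TPM) in both replicates. Its partners Herc2 (3.51 ± 1.06), Mapk6 (5.59 ± 1.76) and Neurl4 (1.51 ± 1.10) were lower, and Rnf2 (45.0 ± 1.94) and Psmd4 (78.8 ± 3.82 TPM) were higher.

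Factors known to protect or set imprints were measured in the same cells. Dppa3 (5044 ± 44.1), which protects maternal marks in the zygote, was highest, followed by Trim28 (64.9 ± 5.24), Dnmt1 (18.98 ± 0.180) and Setdb1 (17.8 ± 0.526 TPM). Zfp57, the zinc-finger protein that recognises methylated imprinting centres, had 6 reads in replicate 1 and 1 in replicate 2 (0.123 ± 0.0620 TPM). Its relative Zfp445 was at 9.41 ± 2.98 TPM. Arid4a (5.54 ± 1.13) and Arid4b (5.85 ± 0.0469), known to act on the Snrpn imprinting centre, were at similar levels, and Uhrf1 (2.20 ± 0.0697) and Ehmt2 (1.37 ± 0.449 TPM) were lower. The sequence TGCCGC, known as the core of the Zfp57 site, occurred on either strand in the Snurf and Snrpn promoter window, as in 11.6% of all windows, and in no other promoter window of the members.

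The genes nearest in level to each member over both libraries were sought, as a description of 2 values per gene. They were Gm22579 and Sra1 for Snurf, Tctex1d2 and Nup62 for Snrpn, Copg1 and Cenpi for Ube3a, Gm49355 and Gm49544 for Ndn, and Tbc1d12 and Gm42752 for Mkrn3. All lay within 0.028 of their member on the log2(TPM + 1) scale (Euclidean distance).

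Snrpn, Ndn and Ube3a are well known in neurons, so markers of other cell types were measured beside them. Of 11 neuron markers, 6 had a row, none was at 0 in both replicates, and 1 reached a TPM of 1 in both. Their summed level was 4.38 TPM in replicate 1 and 7.19 TPM in replicate 2. PGC markers were all in the table, and 10 of 11 reached a TPM of 1 in both, compared with 60.0% of all genes. Dppa3 and Nanos3 (463 ± 14.3 TPM) were the highest. Pou5f1 was just above this threshold, at 1.54 TPM (33 reads) in replicate 1 and 1.46 TPM (11 reads) in replicate 2, below the median of all genes. The exception was Fut4 (0 and 2 reads), which encodes an enzyme of SSEA1 synthesis. Erythroid markers summed to 4002 and 3780 TPM over 7 of 8 genes, the highest of the other cell types. The gut endoderm list summed to 160 and 138 TPM, nearly all from Epcam, which PGCs also express. Summed levels were 7.66 and 5.83 TPM for neural progenitor, 12.9 and 11.002 TPM for endothelium, 2.37 and 3.95 TPM for mesenchyme and 3.397 and 9.23 TPM for visceral endoderm markers. The part of other cells in the members' levels was not tested.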

How the data were processed

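Gene expression of 2 libraries of E9.5 PGCs was analysed. The authors aligned clean reads to mm10 with Hisat2 and used featureCounts for counting, and the deposited values are TPM. The submitters' processing notes also list Bowtie2, RSEM, DESeq2 and R 3.4.2, without roles. Versions, annotation, strand and overlap settings are not given in the sources used here. The methods name Smart-seq2 cDNA and a transposase kit, and the labels a different kit. Per the labels, replicates are numbered by title. Whether they came from separate embryos is not stated.

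Symbols were matched to GENCODE M21 on GRCm38, the assembly of mm10 (18748 with 1 identifier, 129 without). TPM multiplied by exonic length gave whole multiples of 1 amount per library, taken as 1 read. Of values below 50 reads, 96.7% and 95.8% were whole to within 0.02, where chance gives 4.0%. On whole counts simulated for 18748 genes with these same lengths, 100.0% were recovered in both libraries. That outcome checks the calculation only. It cannot show whether other lengths or counting rules lie behind the deposited values. The limit of a zero was 3 reads. No molecular identifiers are described, so reads are not taken as independent molecules, and intervals describe counting error alone. Values were set on log2(TPM + 1), which understates differences of low genes. With 1 group, no test was made, and SDs describe 2 libraries.

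The members and lists were chosen with earlier results of these data known. The text names every member, every gene with a row in lists of 14 or fewer, the 3 highest and 3 lowest of longer lists, every gene with a row between the outermost members, and the 2 genes nearest in level to each member. Cell type markers, Y-linked genes and transcripts beside a named value were named in addition. A gene that falls under this rule is not reported here. Motifs, 50-base runs and other gene lengths were added after seeing the data. Promoter sequences are from RefSeq (GRCm38.p6) and had windows for all 6 members. Python 3.11.15, numpy 2.4.6, pandas 2.3.3, scipy 1.17.1 and matplotlib 3.10.9 were used.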

Additional observations from a re-analysis of the deposited data

How the results depend on the processing

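Alternatives that kept both replicates gave 42 values for 18 results, of which 29 stayed within the spread of the replicates or within 1.5 times a count. Many of these could hardly move. Median-of-ratios scaling shifts the replicates in opposite directions and leaves their mean nearly in place. The filter at a mean TPM of 1 removes no member with a row. For a difference between the replicates, the spread came from that difference itself. The count of 29 is therefore no measure of stability. With a pseudocount of 0.1, the members' median was 3.43 in place of 3.55 on the log2 scale, 1 member in place of 0 differed more than 2-fold, and the paternally expressed members exceeded the other paternally expressed genes by 3.26 in place of 2.87. A filter at a mean TPM of 1 gave 2.51 for that difference, since it drops low genes of the other list. Median-of-ratios scaling turned the difference of Ube3a from -0.0027 to 0.035. Alternatives chosen after seeing the data moved more. Taking Snurf reads out of Snrpn raised Snurf minus Snrpn from 1.19 to 1.44. Without the Snurf row, the paternally expressed members exceeded the other list by 1.66, and Ube3a minus their median turned from -0.997 to 0.21. Per base of the longest transcript, that difference was -0.026 and the level of Ube3a was 4.55, and per base of the RefSeq gene that of Ndn was 4.42. Leaving out 1 of 2 replicates gives the other's value, which cannot pass their SD and says nothing about stability. Snurf per unshared base was not run because it has no such base. No paired analysis was possible because the series has 1 group. The depth of replicate 2 limits Mkrn3 most, at 14 reads.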

Other observations

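Genes that flank the domain were measured as well. Nipa2 (10.7 ± 1.14, SD, n = 2), Tubgcp5 (7.79 ± 0.774) and Cyfip1 (5.99 ± 1.21 TPM) are neighbouring genes on its flank. Herc2 was at 3.51 ± 1.06 TPM. Nipa1, a magnesium transporter gene, was at 0.826 TPM in replicate 1 (25 reads, exact Poisson 95% interval 0.535 to 1.22 TPM) and at 6.67 TPM in replicate 2 (71 reads, 5.21 to 8.42 TPM), a difference of 2.07 on the log2(TPM + 1) scale where 10.2% of all genes differed more than 2-fold.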
